A study of Mus musculus with 6 samples.

Results

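The genes described are 39 genes of the photoreceptor cilium and outer segment, taken by name and grouped by what their products do. They comprise 5 genes of the outer segment membrane and its discs, 8 of the axoneme and connecting cilium, 5 of lipidated cargo transport and its small GTPases, 8 of the BBSome (a coat complex that moves membrane proteins in cilia) and its chaperonins, 11 of intraflagellar transport and 2 kinesin motors. All 39 were on the array, with 59 of its 39429 probes, among 32496 gene names in all. RNA came from retinas of adult male C57BL/6 mice, 7 days after injection of phosphate-buffered saline as the control, SH-42 or SH-80 (both known here by code name) into the vitreous of the right eye at 1 µM, with 12 mice per group and 4 retinas pooled per tube. The animals carried no other allele or treatment that the labels give. Each of the 6 dual-colour Agilent arrays, 3 per compound, set RNA labelled with a compound in Cy3 against RNA labelled control in Cy5, and no array had the dyes exchanged. Whether controls were shared is not given (12 mice at 4 per pool make 3 control pools for 6 arrays), so p-values measure the spread between arrays, which may be partly technical.

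The light-sensing outer segment of a photoreceptor is a modified primary cilium, packed with membrane discs that are shed at the tip and rebuilt at the base throughout life. Every protein of the discs has to pass from the inner segment through a narrow connecting cilium, which corresponds to the transition zone of other cilia. Defects in the genes of this route are among the known causes of inherited retinal degeneration, alone or as part of syndromes such as Bardet-Biedl syndrome, Senior-Løken syndrome and Leber congenital amaurosis.

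To set the photoreceptor-restricted members beside those that serve cilia in general, promoters were read for the 35 members with an entry among RefSeq promoters of build GRCm38.p6 (250 bases before to 50 after the start). TAATCC, a core that the photoreceptor homeobox factor Crx is known to bind, was searched on both strands and found for 5 of these 35 members (Abca4, Rpgrip1, Mak, Unc119 and Bbs1), or 14.3%, against 8.14% of 27025 genes and 7.1% of all 32851 promoters. GTTGCC, a half-site of the RFX factors known for ciliary genes, was found for 12 of the 35 (34.3%), against 14.1% of genes and 12.5% of promoters. The 12 were Lca5, Nphp4, Arl13b, Bbs1, Bbs5, Bbs7, Ift57, Ift88, Ift172, Ift140, Kif3a and Kif17. Among genes with an entry, GTTGCC was held by 0 of 5 outer segment, 2 of 7 axoneme and 1 of 5 lipidated cargo genes. It was also held by 3 of 8 BBSome genes, 4 of 8 intraflagellar transport genes and 2 of 2 kinesins. For TAATCC the counts in the same order were 1, 2, 1, 1, 0 and 0. The paired form, GTTNCC and GGNAAC separated by 2 bases, contains GTTGCC for some bases at N, so the 2 searches are not independent. The pair was found for Bbs7 only among the members, and for 0.529% of genes. The following promoters show these letters, each on its gene's strand with the match in capitals: Rpgrip1 (chr14:52110653-52110952, plus strand) and Abca4 (chr3:122044210-122044509, plus strand) hold TAATCC on the opposite strand, read here as GGATTA, while Ift172 (chr5:31291065-31291364, minus strand) holds the half-site at the annotated start and Bbs7 (chr3:36613340-36613639, minus strand) holds the pair.
Rpgrip1: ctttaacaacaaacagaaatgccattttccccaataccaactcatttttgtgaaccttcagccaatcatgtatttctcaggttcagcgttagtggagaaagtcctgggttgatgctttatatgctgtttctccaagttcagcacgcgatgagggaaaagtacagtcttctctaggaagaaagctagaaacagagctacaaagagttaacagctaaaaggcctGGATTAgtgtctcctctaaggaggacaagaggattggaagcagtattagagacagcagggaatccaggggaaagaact
Abca4: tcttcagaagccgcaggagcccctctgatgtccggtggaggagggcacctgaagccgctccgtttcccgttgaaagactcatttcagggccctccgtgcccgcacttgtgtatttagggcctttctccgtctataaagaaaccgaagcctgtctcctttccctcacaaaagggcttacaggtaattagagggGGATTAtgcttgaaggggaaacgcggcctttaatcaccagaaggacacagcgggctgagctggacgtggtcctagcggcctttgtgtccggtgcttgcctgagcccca
Ift172: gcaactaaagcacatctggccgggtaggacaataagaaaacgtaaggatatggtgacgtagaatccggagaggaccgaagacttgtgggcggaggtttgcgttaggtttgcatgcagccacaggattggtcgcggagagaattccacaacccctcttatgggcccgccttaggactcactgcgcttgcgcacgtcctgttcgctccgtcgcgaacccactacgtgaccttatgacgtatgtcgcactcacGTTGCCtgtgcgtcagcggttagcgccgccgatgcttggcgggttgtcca
Bbs7: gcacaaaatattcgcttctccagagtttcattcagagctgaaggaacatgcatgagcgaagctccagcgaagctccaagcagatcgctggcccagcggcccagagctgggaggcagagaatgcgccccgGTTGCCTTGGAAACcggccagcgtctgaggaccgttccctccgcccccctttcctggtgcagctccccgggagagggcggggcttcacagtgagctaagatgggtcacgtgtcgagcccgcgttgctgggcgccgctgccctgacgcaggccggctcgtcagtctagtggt

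Median counts of CpG dinucleotides were 9.5 for promoters of outer segment genes, 22.5 for BBSome genes and 22 for intraflagellar transport genes, against 7 for all promoters. These matches describe the sequence, and no binding was measured here.

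All 39 members passed the filter on dim probes, and 38 were well above background on 6 of 6 arrays in both channels. The exception was Ift140, of the complex that returns cargo from the ciliary tip, which was above background in Cy3 on 4 of 6 arrays. All 14 rod and all 12 cone marker genes were above background on every array in both channels. Of 11 motile cilium genes, 6 were above background on every array in Cy3 and 8 in Cy5. Those above background on no array were 4 in Cy3 and 0 in Cy5. Values are log2 of Cy3 over Cy5 after background correction and dye normalization by loess, which by the labels is compound over control. The deposited table of the series gives the opposite ratio, Cy5 over Cy3, and without exchanged dyes a gene's dye bias and the treatment cannot be told apart in a ratio against control. Signs also depend on loess: with each array only centred on its median, the median of all genes fell to -0.25 for SH-42 and -0.15 for SH-80, and all 39 members were below 0 for SH-42 and 38 of 39, the exception being Ift172, for SH-80. Signs are therefore given relative to the loess curve, and a dye bias that is equal on all arrays cancels in the difference between the compounds. Whether the channels hold what the labels name could not be settled here. Were they exchanged, every sign would turn, that of the difference between the compounds included.

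SH-42 replicate 1 stood apart before any comparison. Across the 39 members, which are not independent and share dye orientation and possibly controls, Pearson's r between its ratios and those of another array was -0.11 to 0.293, while the 10 pairs of arrays without it gave 0.723 to 0.861. Its ratio lay above all 5 other arrays for 23 members and below all 5 for 7. The channel labelled control carried this: the Cy5 signal was the lowest of the 6 arrays there for 26 members and the highest for 5, and Cy5 ranged more widely than Cy3 for 36 of 39. The median SD over the 6 arrays was 0.0519 in Cy3 and 0.123 in Cy5 (log2 signal), and 0.0447 and 0.0768 without that array. Over all genes these SDs were 0.0682 and 0.141, and 0.0621 and 0.096 without it. Counts of members that passed, the members' medians and the differences between the compounds are given with and without SH-42 replicate 1 below, as are members whose call its removal changed.

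**Figure D1:**
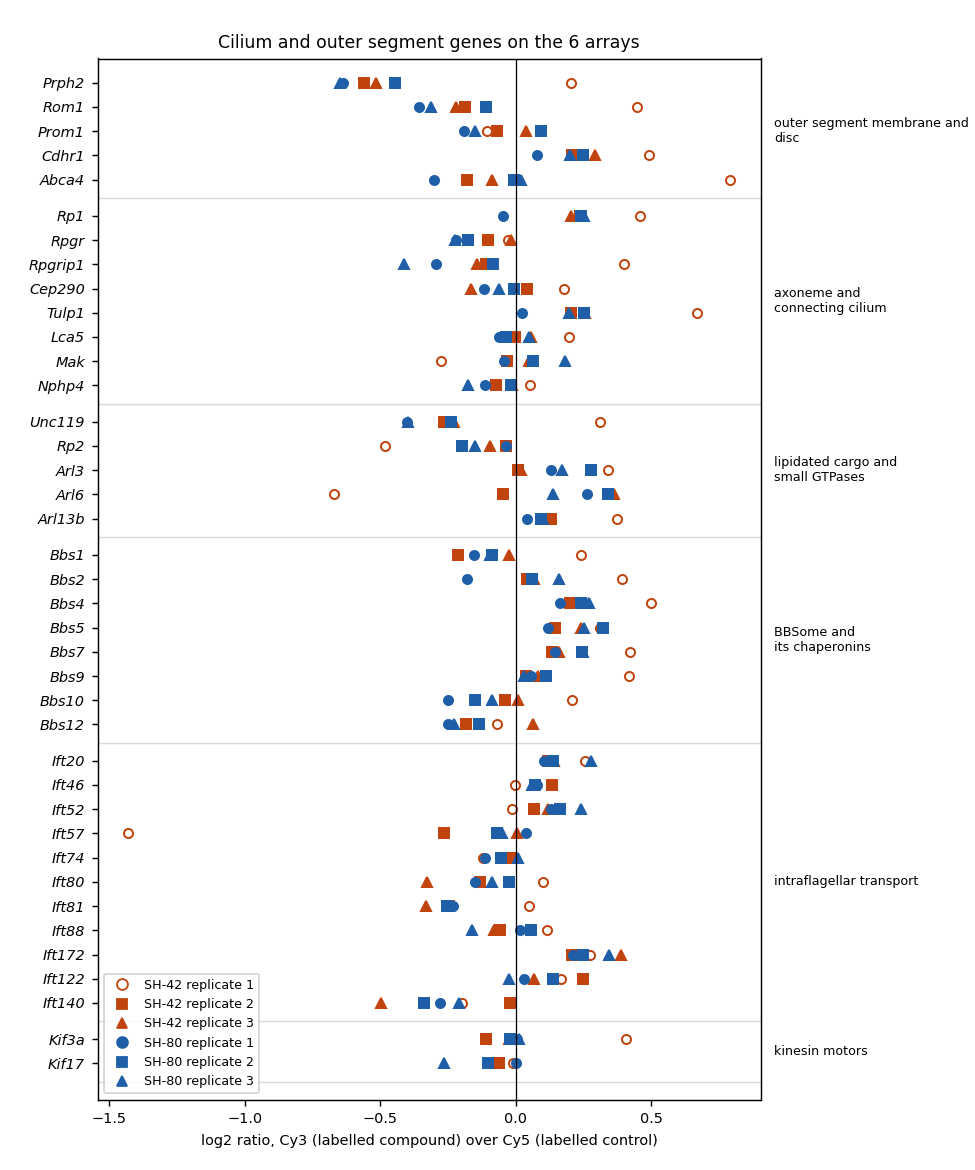
The log2 ratio of Cy3 over Cy5 (horizontal axis) of each of the 39 members on each of the 6 arrays, grouped by role, with SH-42 in orange, SH-80 in blue and SH-42 replicate 1 as open circles. The open circle lies right of all other points for 23 members and left of them for 7, and the other 5 arrays mostly lie close together.

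Marker genes of several cell types moved in the same channel of that array, which bears on every member, since in pooled bulk retina fewer cells of a type and less RNA per cell cannot be told apart. The mean log2 Cy5 signal of the 14 rod markers was 15.57 on SH-42 replicate 1 and 16.13 to 16.31 on the other arrays, and that of 10 bipolar markers was 12.07 against 12.97 to 13.27. Müller glia markers (8 genes) were at 14.56 against 13.6 to 13.83, and 12 gliosis genes at 12.3 against 9.555 to 10.69. The 9 microglia markers were at 12.57 there and at 9.963 to 10.88 elsewhere. Skeletal muscle markers (10 genes) were at 10.41 there, at 10.44 on SH-80 replicate 2 and at 7.781 to 8.084 on the remaining 4 arrays. Lens markers (12 genes) ranged from 11.39 to 14.07 in Cy5. In Cy3 the same lists spanned less, for example 16.05 to 16.19 for rod and 11.24 to 11.28 for microglia markers. The part of these differences in the members' values was not tested.

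**Figure D2:**
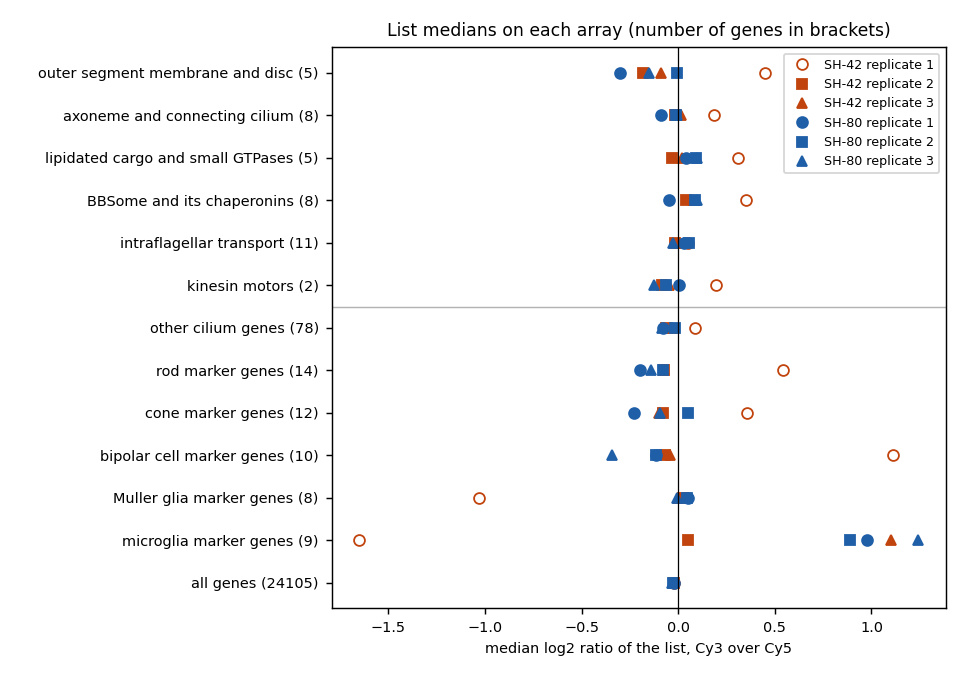
Median log2 ratio of Cy3 over Cy5 (horizontal axis) of each role group of members, above the line, and of other gene lists and all genes, below it, on each array, with SH-42 replicate 1 as open circles. On that array the outer segment median of 0.447 and the rod marker median of 0.541 lie right of all other arrays, the Müller glia and microglia medians lie left of them, and intraflagellar transport stays near 0.

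For SH-42 against control, no member passed the threshold of an adjusted p of 0.05 (limma, Benjamini-Hochberg over 24105 genes), beside 0.602% of all genes. At an unadjusted p under 0.05 there were 11 of 39 members (28.2%), beside 23.5% of all genes. The members' median log2 ratio was 0.05 and that of all genes -0.03. For SH-80 against control, 2 of 39 members passed (5.13%), beside 14.7% of all genes, a smaller share than in the background. Ift172 was higher and Rpgr lower in Cy3, the channel labelled compound. The members' median was -0.03, as was that of all genes. The mean ratio of every member lay within 1.5-fold of 1 for both compounds, as it did for 98.1% of all genes with SH-42 and 96% with SH-80. Without SH-42 replicate 1, 1 member passed for SH-42 (Prph2, lower), which is 2.56% of the members beside 1.82% of all genes, and 16 passed for SH-80, 8 higher and 8 lower, which is 41% of the members beside 38.8% of all genes. Both shares lie near the background. The members' SH-42 median was then -0.02, and their SH-80 median stayed at -0.03, since that array does not enter it. That array does enter the SE for SH-80, whose spread is pooled over both compounds.

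The outer segment genes held the lowest mean ratio with SH-80 and, by role, the widest median gap between SH-42 replicate 1 and the other arrays. Prph2 encodes peripherin-2, a tetraspanin that shapes the disc rim. Its log2 ratio was 0.21, -0.56 and -0.51 on SH-42 replicates 1 to 3 and -0.64, -0.44 and -0.65 on SH-80 replicates 1 to 3. Only SH-42 replicate 1 was above 0, and the other SH-42 arrays lay within the SH-80 range. The mean was -0.58 ± 0.15 with SH-80 (n = 3 arrays), with an adjusted p of 0.0528 in limma. With SH-42 it was -0.29 ± 0.15, with a limma adjusted p of 0.291. The SE uses a spread pooled over both compounds, and without SH-42 replicate 1 that of SH-80 was 0.058. Without SH-42 replicate 1 the SH-42 mean was -0.54 and both compounds passed, with limma adjusted p of 0.029 for SH-42 and 0.00585 for SH-80. The Cy5 signal of Prph2 was 17.45 on SH-42 replicate 1 and 17.85 to 17.96 on the other arrays, beside 17.26 to 17.66 in Cy3, so the array that reversed had both the lowest Cy5 and the highest Cy3 signal. Both Prph2 probes had the same sign for both compounds.

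Rom1 encodes the partner tetraspanin of peripherin-2 in the rim. Its ratio was 0.45, -0.19 and -0.22 on the SH-42 arrays and -0.36, -0.11 and -0.31 on the SH-80 arrays. Again SH-42 replicate 1 stood alone above 0 and the rest overlapped. Neither mean passed over all arrays, at 0.01 ± 0.14 for SH-42 and -0.26 ± 0.14 for SH-80, and the SH-80 mean passed without SH-42 replicate 1, with a limma adjusted p of 0.022. Abca4 encodes the disc transporter that clears retinal adducts of the visual cycle. Its ratio was 0.79 on SH-42 replicate 1, -0.18 and -0.09 on the other SH-42 arrays, and -0.30, -0.01 and 0.02 on the SH-80 arrays. That 0.79 was the highest ratio of any member on any array, and the other 5 arrays overlapped around 0. Its Cy5 signal was 12.19 on SH-42 replicate 1 and 13.0 to 13.41 elsewhere, while Cy3 stayed between 12.96 and 13.11. The 2 Abca4 probes differed in sign for SH-42. The dimmer probe read 0.54 on SH-42 replicate 1 and between -0.54 and -0.33 on the other 5 arrays, so values around 0 there hold for the brighter probe only.

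Cdhr1, a cadherin at the base of the outer segment where new discs form, was above 0 on all 6 arrays. Its values were 0.49, 0.21 and 0.29 with SH-42 and 0.08, 0.25 and 0.20 with SH-80. The SH-42 mean of 0.33 ± 0.07 had an adjusted p of 0.123 in limma and the SH-80 mean of 0.18 ± 0.07 one of 0.142, which became 0.0445 without SH-42 replicate 1. Prom1, a membrane protein of the nascent disc edge, lay between -0.19 and 0.09 on the 6 arrays, with its probes opposed in sign. The group had thus no common sign, although 4 of its 5 genes had their highest ratio on SH-42 replicate 1, and the median gap over the 5 genes to the mean of the other 5 arrays was 0.684.

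**Figure D3:**
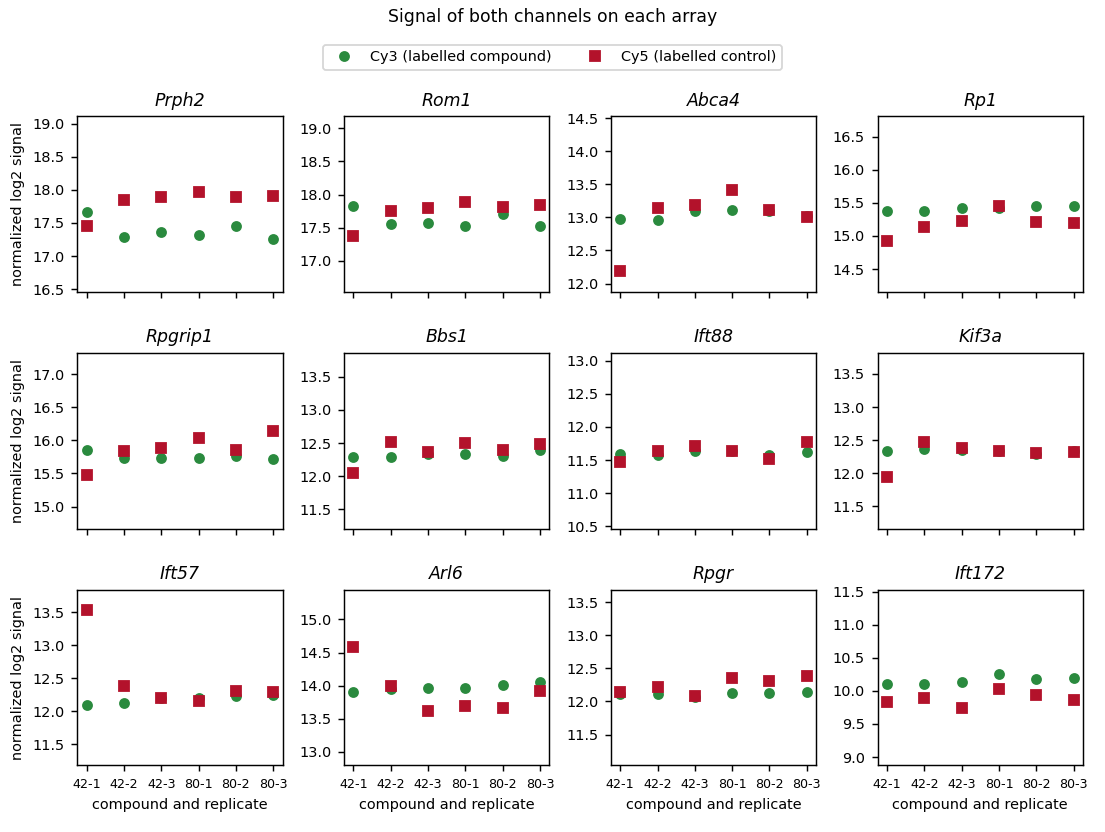
Normalized log2 signal (vertical axis, each panel spanning the same log2 range) of 12 members in Cy3, labelled compound (green circles), and Cy5, labelled control (red squares), on each array, named by compound number and replicate. Abca4, Rom1, Prph2 and Kif3a have their lowest Cy5 signal on SH-42 replicate 1, Ift57 and Arl6 have their highest there, and Cy3 varies less.

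Among genes of the axoneme and connecting cilium, Rpgr was the member that passed. It encodes a regulator of protein passage at the connecting cilium and is the main gene of X-linked retinitis pigmentosa. Its ratio was -0.22, -0.17 and -0.22 on the SH-80 arrays and -0.03, -0.10 and -0.02 on the SH-42 arrays. All 6 values were below 0, the SH-80 arrays differed little among themselves, and the SH-42 and SH-80 values did not overlap. The SH-80 mean was -0.21 ± 0.05 (pooled SE, n = 3 arrays) with an adjusted p of 0.0456 in limma. The SH-42 mean was -0.05 ± 0.05 with one of 0.551. Without SH-42 replicate 1 the SH-80 adjusted p was 0.0193. Cy5 was 12.35, 12.31 and 12.38 on the SH-80 arrays against 12.09 to 12.22 on the SH-42 arrays, while Cy3 was 12.07 to 12.15 on all 6. The channel labelled control thus carried most of that gap. The SH-80 means of all 3 Rpgr probes were below 0. These values are those of the brightest probe, and in the other probes the SH-42 and SH-80 values overlapped. With the mean of probes the SH-80 mean was -0.18, with an adjusted p of 0.0912 in limma, and did not pass. The call is near the threshold: with the slide as a random block the adjusted p was 0.0573, with it as a fixed block 0.375, and within slide 2, which holds all SH-80 arrays and SH-42 replicate 3, it was 0.0247.

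Rpgrip1 encodes the protein that anchors Rpgr in the connecting cilium. Its ratio was 0.40, -0.11 and -0.14 with SH-42 and -0.29, -0.08 and -0.41 with SH-80, so SH-42 replicate 1 alone was above 0. The SH-80 mean of -0.26 ± 0.12 had an adjusted p of 0.177 in limma, and of 0.0306 without SH-42 replicate 1. Rp1, a doublecortin-domain protein of the axoneme that aligns the discs, had ratios of 0.46, 0.24 and 0.20 with SH-42 and -0.05, 0.24 and 0.25 with SH-80. Here the groups overlapped, and neither mean, 0.30 ± 0.09 and 0.15 ± 0.09, passed. The dimmer Rp1 probe had means of 0.11 with SH-42 and -0.04 with SH-80. Tulp1, needed for transport of rhodopsin to the outer segment, was above 0 on all 6 arrays, with 0.67, 0.20 and 0.25 for SH-42 and 0.02, 0.25 and 0.20 for SH-80. Its SH-42 mean of 0.38 ± 0.10 was the highest of the members and had an adjusted p of 0.145. Like Rp1 and Cdhr1, it was highest on SH-42 replicate 1.

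The other 4 genes of this group stayed close to 0 in the mean of each compound. Cep290, the transition zone protein mutated in one form of Leber congenital amaurosis, had means of 0.02 with SH-42 and -0.06 with SH-80. Those of Lca5 (lebercilin, which binds intraflagellar transport particles) were 0.08 and -0.02, and those of Nphp4, a nephrocystin of the transition zone, -0.01 and -0.10. Mak, a kinase that limits ciliary length, had -0.09 and 0.07 and was the one gene of the group with its lowest ratio, -0.28, on SH-42 replicate 1.

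Lipid-modified proteins reach the outer segment by a shuttle in which Unc119 carries myristoylated cargo, the small GTPase Arl3 releases it and Rp2 switches Arl3 off. Unc119 had ratios of 0.31, -0.27 and -0.23 with SH-42 and -0.40, -0.24 and -0.40 with SH-80. Without the first value all arrays were below 0, and the SH-80 mean of -0.35 ± 0.12 had an adjusted p of 0.0942 in limma, or 0.00916 without SH-42 replicate 1. Arl3 was above 0 on all 6 arrays, from 0.01 to 0.34, with means of 0.12 with SH-42 and 0.19 with SH-80, and the SH-80 mean passed without SH-42 replicate 1, with a limma adjusted p of 0.0287. Rp2 was below 0 on all 6, from -0.48 on SH-42 replicate 1 to -0.03, with means of -0.20 and -0.13. Arl6, the GTPase that brings the BBSome to membranes, ranged widely, with -0.67, -0.05 and 0.36 for SH-42 and 0.26, 0.34 and 0.14 for SH-80. Its Cy5 signal on SH-42 replicate 1 was 14.58, the highest of the 6 arrays, so Rp2 and Arl6 went opposite there to Unc119 and Arl3. The dimmer Arl6 probe had means of -0.47 with SH-42 and -0.05 with SH-80. Arl13b, a GTPase of the ciliary membrane, was above 0 on all arrays, at 0.38, 0.13 and 0.12 with SH-42 and 0.04, 0.09 and 0.10 with SH-80. Its compounds did not overlap, the means of 0.21 and 0.08 did not pass, and its 2 probes differed in sign.

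The BBSome genes were of both signs, with 4 to 7 of the 8 above 0 on an array. Bbs4, Bbs5 and Bbs7, subunits of the complex, were above 0 on all 6 arrays by their brightest probe. The dimmer Bbs5 probe read -0.11 on SH-80 replicate 1. The dimmer Bbs7 probe read -0.06 on SH-42 replicate 2 and -0.10 on SH-80 replicate 1. Both dimmer probes had an SH-80 mean of 0.08. Values that follow are those of the brightest probe. Bbs4 had 0.50, 0.20 and 0.26 for SH-42 and 0.16, 0.24 and 0.27 for SH-80. Its means were 0.32 ± 0.07 and 0.22 ± 0.07, with adjusted p of 0.126 and 0.0815 in limma. Bbs5 had 0.31, 0.14 and 0.24 for SH-42 and 0.12, 0.32 and 0.25 for SH-80, with the same mean of 0.23 ± 0.06 for both compounds and adjusted p of 0.146 and 0.0588. Bbs7 lay between 0.13 and 0.42, with means of 0.24 and 0.21. None of the 3 passed in the fit over all arrays, and all 3 passed for SH-80 without SH-42 replicate 1, with adjusted p of 0.0169, 0.0247 and 0.0191.

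Bbs1, the subunit most often affected in Bardet-Biedl syndrome, had 0.24, -0.21 and -0.02 with SH-42 and -0.15, -0.09 and -0.10 with SH-80. Its first value was the only one above 0, and neither mean, 0.001 ± 0.089 nor -0.11 ± 0.09, passed. Bbs9 was above 0 on all arrays with means of 0.18 and 0.07, and Bbs2 had means of 0.17 and 0.01. The chaperonin-like proteins Bbs10 and Bbs12, which assemble the complex, were below 0 on every SH-80 array by their brightest probe. Bbs10 had -0.25, -0.15 and -0.09 on the SH-80 arrays and 0.21, -0.04 and 0.01 on the SH-42 arrays, and these did not overlap. The dimmer Bbs10 probe read 0.07 on SH-80 replicate 3, and its compounds overlapped. Bbs12 had SH-80 and SH-42 means of -0.20 and -0.06. Neither passed over all arrays, while both did for SH-80 without SH-42 replicate 1, with adjusted p of 0.0485 and 0.045. In Cy5, all 8 BBSome genes had their lowest signal on SH-42 replicate 1, the one role group of more than 2 genes in which every gene did.

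Intraflagellar transport moves cargo along the axoneme, outward with the B complex and kinesin-2 and back with the A complex. Ift172, the largest protein of the B complex, was the second member that passed. Its ratio was 0.27, 0.21 and 0.39 on the SH-42 arrays and 0.21, 0.25 and 0.34 on the SH-80 arrays. All 6 values were above 0 and the compounds overlapped fully. The SH-80 mean was 0.27 ± 0.06 (pooled SE, n = 3 arrays) with an adjusted p of 0.0388 in limma. The SH-42 mean of 0.29 ± 0.06 had an adjusted p of 0.109 in limma. The unadjusted p were 0.00388 and 0.00263, and their adjustment depends on the other genes of each comparison. Cy3 was 10.1 to 10.25 and Cy5 9.745 to 10.03, with no array apart. This gene has 1 probe. Its adjusted p for SH-80 was 0.0505 with the slide as a random block, 0.422 with it as a fixed block, 0.0157 within slide 2 and 0.017 without SH-42 replicate 1, and the mean was 0.04 with median centring in place of loess.

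Other genes of the B complex were of both signs. Ift20, which also serves vesicles at the Golgi, was above 0 on all 6 arrays with a mean of 0.17 for each compound. Ift52 had means of 0.06 with SH-42 and 0.18 ± 0.06 with SH-80, with an adjusted p of 0.075 for the latter in limma, and its compounds did not overlap. Ift46 had a mean of 0.07 for each, while its dimmer probe had means of -0.07 with SH-42 and -0.15 with SH-80. By the brightest probe, Ift20, Ift52 and Ift46 were the B complex genes with positive means for both compounds beside Ift172. Ift81, a tubulin-binding subunit, was below 0 on the 5 arrays other than SH-42 replicate 1, between -0.33 and -0.23, with means of -0.18 and -0.24. Ift74, its partner, had means of -0.06 and -0.05, and Ift80 -0.12 and -0.09. Of these genes, Ift20, Ift52 and Ift81 passed for SH-80 without SH-42 replicate 1, with limma adjusted p of 0.045, 0.0314 and 0.0128.

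Ift88, loss of which in mouse is known to disrupt outer segments, had 0.12, -0.06 and -0.08 for SH-42 and 0.01, 0.06 and -0.16 for SH-80. These values straddled 0 in both groups, and the means of -0.01 ± 0.07 and -0.03 ± 0.07 did not pass. Ift57 gave the most extreme value of any member, -1.43 on SH-42 replicate 1, against -0.27 and 0.005 on the other SH-42 arrays and 0.04, -0.07 and -0.05 on the SH-80 arrays. Its Cy5 signal was 13.53 on that array and 12.16 to 12.39 on the others, with Cy3 at 12.1 to 12.25 throughout. The SH-42 mean of -0.56 ± 0.25 thus rested on 1 array and became -0.13 without it. Of the A complex, Ift122 had means of 0.16 and 0.05, and Ift140 was below 0 on all 6 arrays, between -0.50 and -0.02, with means of -0.24 and -0.28, on dim signals of 7.398 to 7.896.

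The kinesins carry this traffic. Kif3a, the motor subunit of kinesin-2, had 0.40 on SH-42 replicate 1, -0.11 and -0.02 on the other SH-42 arrays, and 0.003, -0.02 and 0.01 on the SH-80 arrays. The first value lay farthest from 0, with Cy5 at 11.94 there and at 12.31 to 12.47 elsewhere. The dimmer Kif3a probe read 0.19 on SH-42 replicate 1 and between -0.17 and -0.07 on the other 5 arrays, with an SH-80 mean of -0.13. By the brighter probe neither mean, 0.09 ± 0.10 nor -0.002 ± 0.102, passed. Kif17, the homodimeric motor, had means of -0.05 and -0.12.

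Members with the same sign for both compounds, by the brightest probe of each gene, were counted beside the share of all genes. On the 5 arrays without SH-42 replicate 1, 12 of 39 members were above 0 on every array, beside 22.2% of all genes. Below 0 on every array were 11 of 39, beside 32.4%. Over all 6 arrays these numbers were 10 of 39, beside 13.1%, and 3 of 39 (Rpgr, Rp2 and Ift140), beside 21%. Whether the members' shares differ from those of all genes was not tested. The 8 that were below 0 on the 5 arrays and not on SH-42 replicate 1 included Prph2, Rom1, Rpgrip1, Unc119 and Ift81. Both compounds were set against the control channel, and control pools may have been shared, so this sharing of sign is no separate evidence for either compound.

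Where the compounds were compared with each other, at the same dose and day, no member passed: 39 pairs of means were compared within a fit over 24105 genes, and 0% of all genes passed. At an unadjusted p under 0.05 there were 0 members, beside 944 of all genes (3.92%), and the lowest adjusted p of a member in limma was 0.691. The members' median difference, SH-42 minus SH-80, was 0.09 on the log2 scale, beside 0.02 for all genes, and 28 of 39 were above 0, beside 53.6% of all genes. Without SH-42 replicate 1 the median difference was 0.0312 and 23 of 39 were above 0, beside 0.000391 and 50.2% for all genes. Differences of smallest p were those of Bbs10, at 0.22 (95% interval -0.01 to 0.46), Rpgr, at 0.16 (-0.02 to 0.33), Rpgrip1, at 0.31 (-0.11 to 0.73), Unc119, at 0.29 (-0.12 to 0.69), and Ift52, at -0.12 (-0.31 to 0.07). By the brightest probe of each gene, arrays of the compounds did not overlap for 4 members (Rpgr, Arl13b, Bbs10 and Ift52), beside 13.5% of all genes.

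That does not show that the compounds act alike, and the intervals bound the differences between array ratios only. The whole 95% interval lay within a 1.5-fold difference for 32 of 39 members and within 2-fold for 38, the exception being Ift57, at -0.54 with an interval of -1.41 to 0.33. For Prph2 the difference was 0.29 (-0.23 to 0.81) and for Abca4 0.27 (-0.38 to 0.92), the wider intervals being those of members with a discordant SH-42 replicate 1. Without SH-42 replicate 1, that compound was left with replicates 2 and 3. The SD of ratios over all genes was 0.157 on replicate 2, beside 0.309 to 0.361 on SH-42 replicate 3 and the SH-80 arrays. In that fit all 39 intervals lay within 1.5-fold, and differences ran from -0.18 for Arl3 to 0.15 for Bbs10. The SD of the differences over members was 0.0793 in place of 0.166. Again no member passed and none had an unadjusted p under 0.05. These bounds hold for a dose of 1 µM at 7 days, and for array ratios with any difference of slide or control pool included. SH-42 replicates 1 and 2 lay on slide 1 and the other 4 arrays on slide 2. Slide and compound are thus partly confounded.

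**Figure D4:**
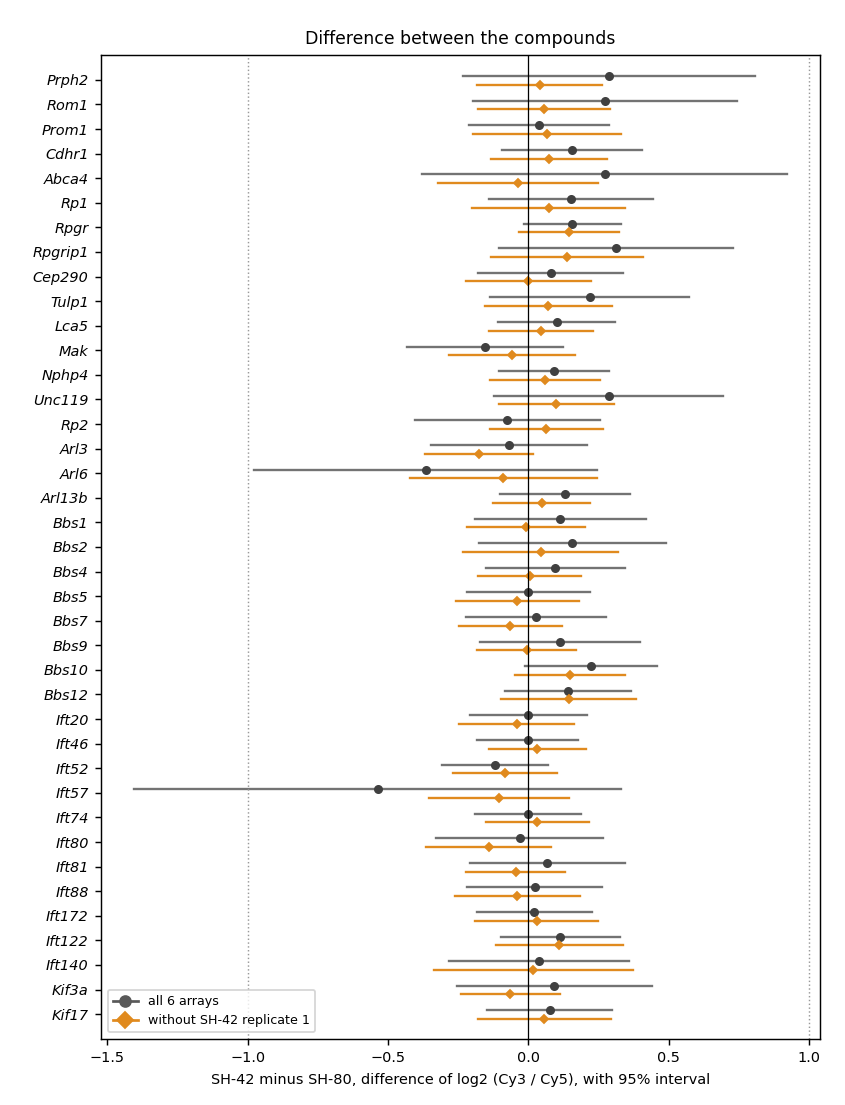
Difference between the compounds, SH-42 minus SH-80 (horizontal axis, log2 ratio against control), of each member with its 95% interval, over all 6 arrays (grey circles) and without SH-42 replicate 1 (orange diamonds); dotted lines mark a 2-fold difference. Every interval includes 0, the grey interval of Ift57 reaches past 2-fold, and the orange intervals all lie within 1.5-fold.

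Of 83 other cilium genes, 80 were on the array and 78 were tested. None passed for SH-42, beside 0.602% of all genes, and 15 of 78 had an unadjusted p under 0.05, beside 23.5%. For SH-80, 4 of 78 passed, 1 higher and 3 lower, beside 14.7% of all genes, a smaller share than in the background. None passed between the compounds, beside 0% of all genes, and 3 of 78 had an unadjusted p under 0.05, beside 3.92%. B9d2, of the transition zone, was higher with SH-80 at 0.33 ± 0.05, with a limma adjusted p of 0.0279. Tctn3, a tectonic of the same zone, was lower at -0.22 ± 0.05, with one of 0.0402. Impg1, a proteoglycan of the matrix around the outer segments, was lower at -0.32 ± 0.06, and Whrn, a scaffold of the periciliary membrane, at -0.33 ± 0.08, with limma adjusted p of 0.0288 and 0.0479. Their median was -0.02 for SH-42 and -0.05 for SH-80, close to that of all genes. Without SH-42 replicate 1, 0 of the 78 passed for SH-42 or between the compounds and 20 (25.6%) passed for SH-80, 5 higher and 15 lower, beside the 38.8% of all genes.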

How the data were processed

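RNA of 6 array hybridisations was analysed, 3 per compound. Per the file headers, the deposited scanner files hold the median intensity of each spot and its background in both channels, with flags coded 0 or 1 (other). Agilent Feature Extraction is given as 11.0.1.1 there and as 9.3.2.1 per the submitters' processing notes. The authors' deposited value table holds log2 of processed Cy5 over Cy3 plus a constant per array (99.7% of values within 0.01 of it), with column medians from -0.0754 to -0.0464, so its scale and centring are known and its direction opposes the labels. Probes were named through RefSeq accessions (26055 of 39429, 66.1%), since the scanner files were used without gene names.

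Signals were corrected by normexp (offset 50) and loess, log2 of Cy3 over Cy5 was taken, outlier spots were left out, and 9944 probes were removed that fewer than 3 of 6 arrays had well above background in Cy3 or Cy5. The brightest probe stood for a gene, leaving 24105 genes, 15956 with a symbol. Channel signals were scaled between arrays by Aquantile after loess. Between 58.3% and 63.1% of spots were above background in Cy3 and 70.9% to 76.7% in Cy5, and 0 were saturated. No 2 arrays (15 pairs) were identical. The number of arrays limits the precision.

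A model with 1 coefficient per compound was fitted with lmFit and eBayes of limma 3.58.1 (R 4.3.3), 2-sided, with Benjamini-Hochberg adjustment over all genes and a threshold of 0.05. Errors are its SE. The spread behind each SE was estimated over the arrays of both compounds together, so it is not the spread of 1 compound's arrays. The model was tested on simulated data. Alternatives covered background correction, dye normalization, value source, probe filter and choice, slide, replicate block, samples in the fit, array weights and leaving out each array. Members and lists were chosen with earlier results of these data known. Every member is named with a value; full statistics go to members past the threshold, filled to 5 by smallest p, and per-array values always to Prph2, Rom1, Rp1, Abca4, Rpgrip1, Bbs1, Ift88 and Kif3a. SH-42 replicates 1 and 2 lay on slide 1 and the other 4 arrays on slide 2. Python 3.11.15 with pandas 2.3.3 and matplotlib 3.10.9 read promoters and made the plots.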

Additional observations from a re-analysis of the deposited data

Results flagged for a closer look

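In 11 of the 39 members the log2 Cy5 signal (labelled control) on SH-42 replicate 1 lay so far from the other 5 arrays that its gap to the nearest of them, divided by the range, was above Dixon's 95% critical value for 6 arrays. It was low for 9 of them: 17.45 for Prph2, 17.37 for Rom1, 12.19 for Abca4, 17.07 for Unc119, 10.69 for Arl13b, 12.05 for Bbs1, 13.39 for Bbs4, 12.55 for Bbs9 and 11.94 for Kif3a. It was high for the remaining members, at 8.541 for Rp2 and 13.53 for Ift57. No other array gave such a value for a member in Cy5. Over all genes 5453 of 24086 (22.6%) met the same measure on some array, and chance gives about 1 in 20 groups. The cause was not tested.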

How the results depend on the processing

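Between the compounds, 0 members passed under each of the alternatives run, and the members' median difference of 0.0913 turned negative only with median centring without loess, at -0.0857. It was 0.0312 without SH-42 replicate 1, 0.034 with the slide as a fixed block or within slide 2, 0.0372 with array weights and 0.041 with scale normalization. For SH-42 the count of 0 members became 4 without background correction (10.3% of members, beside 13.3% of all genes), 1 with processed signals (2.56% beside 16%), 2 with the deposited table, sign turned (5.13% beside 15.7%), 17 with median centring (43.6% beside 37.7%), 9 with array weights (23.1% beside 13.1%) and 1 within slide 2, an alternative added after seeing the data (2.56% beside 5%), and leaving out 1 array gave 0 to 1. For SH-80 the count of 2 became 1 with offset 10, processed signals, the deposited table or the mean of probes. That was 2.56%, beside 12.5% to 20.2% of all genes. The count became 3 without background correction (7.69% beside 19.8%) or without a probe filter (7.69% beside 15.8%), and 4 with median centring (10.3% beside 15.2%). It became 0 with scale normalization between arrays (beside 2.72% of all genes) and with the slide as a random block (beside 9.85%). It was also 0 with the slide as a fixed block and with the replicate block, each beside 0% of all genes. With the SH-80 arrays alone or within slide 2 it was 15 (38.5% beside 38.2%), and with array weights 17 (43.6% beside 42.3%). Leaving out 1 array gave 0 to 16 for SH-80, the 16 (41% beside 38.8%) being without SH-42 replicate 1. The count was 2 without SH-42 replicate 3 (5.13% beside 13.3%) and 0 without SH-42 replicate 2 (beside 9.43%). Without any 1 of the SH-80 arrays it was 0, beside 0% of all genes. Over all genes, the 145 calls for SH-42 became 0 and 438, and the 3548 for SH-80 became 0 and 9358, with the replicate block and without SH-42 replicate 1 respectively. The replicate numbers were not taken as pairs, since deviations of same-numbered arrays correlated at -0.153, -0.431 and 0.18 over all genes. Other settings moved them to between 0 and 9079 and between 0 and 10195. With the slide as a fixed block the members' SH-80 median was 0.025. With median centring the medians were -0.39 for SH-42 and -0.29 for SH-80, and SH-42 means above 0 turned to values below 0 that passed in Rom1 (-0.84), Rpgrip1 (-0.66), Cep290 (-0.39) and Ift46 (-0.44); there loess, which sets the mean ratio at each brightness to 0, was the choice removed. Probes of 1 gene gave the same sign in 8 of 17 members with several probes for SH-42 and 10 of 17 for SH-80, with median gaps of 0.133 and 0.137. Ift140 was above background in Cy3 on 4 of 6 arrays only.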
